A study of Rattus norvegicus with 12 samples.

Results

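Brain RNA of ligated rats that had received AAV-VEGFC, a viral vector carrying the gene of vascular endothelial growth factor C, was compared with that of ligated rats given no vector, the group labelled BDL. The comparison takes 6 of the 12 libraries of the series, 3 in each group, chosen by their sample titles. All 6 rats were male Sprague-Dawley rats of postnatal day 60 whose bile ducts had been ligated for 4 weeks, so the ligation and what it does to the liver are shared by both groups. The AAV-VEGFC rats had in addition been injected with 1.5e+11 genome copies in 20 µl into the cisterna magna, the cerebrospinal fluid cistern below the cerebellum. The label prints the exponent of that dose on the line, so its size is a reading. No injection is given in the labels for the BDL group. The sources used here give neither the capsid, the promoter and the species of the VEGFC sequence nor the time from injection to sampling. What the vector, the injection and the transgene each contributed therefore cannot be told apart from these 6 libraries. Any difference between the groups in sample handling or library preparation would also enter this comparison, and its part was not tested. The 3 AAV-GFP libraries, from ligated rats given a vector for green fluorescent protein at the same dose, and the 3 sham libraries serve below as reference levels.

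Bile duct ligation blocks the outflow of bile and leads to cholestasis, fibrosis and cirrhosis, and it is a common model of hepatic encephalopathy, the brain disorder of liver failure in which ammonia is raised. VEGFC is a secreted growth factor that binds the receptor VEGFR3 (encoded by Flt4) on lymphatic endothelium and, after processing, VEGFR2 (encoded by Kdr), and it drives the growth of lymphatic vessels, including those of the meninges. Adeno-associated virus (AAV) delivers a transgene that mostly stays outside the chromosomes. The brain tissue itself lacks conventional lymphatic vessels, and most of its endothelium forms the blood-brain barrier.

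The 6 libraries held between 40296297 and 50861525 counts. Levels are given as CPM, the counts of a gene scaled to library size, and changes as log2 fold changes ± SE from a fit of these 6 libraries alone, with adjusted p from edgeR's quasi-likelihood test. Although the series names middle brain, Slc17a7, which loads glutamate into vesicles in cortical neurons, lay at 1260 to 1640 CPM in the 6 libraries, and Th, tyrosine hydroxylase of dopamine neurons, at 0.683 to 1.7 CPM. The library AAV-VEGFC 1 stood apart: ribosomal protein genes took 2.84% of its counts, against 1.06 to 1.57% in the other 11, and its chi-square per degree of freedom against the other AAV-VEGFC libraries was 220 and 227, against 29.1 between those and 14.7 to 17.4 among BDL libraries. Rn18s, the 18S ribosomal RNA, took 0.749 to 1.16% of counts with AAV-VEGFC and 0.181 to 0.306% in BDL. With AAV-GFP it took 0.43 to 1.12% and in sham 0.137 to 0.168%, and its part in the results below was not tested. In the design text each group has 3 rats, but no label ties a library to an animal, so p-values measure the spread between these libraries.

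Most genes that passed the test were lower with AAV-VEGFC. Of 12598 genes tested, 330 passed at an adjusted p under 0.05, which is 2.62%: 29 were higher (0.23%) and 301 were lower (2.39%). More than 2-fold changes made up 17 of the higher and 121 of the lower genes, and the smallest change that passed was 0.41 on the log2 scale. The median over all tested genes was -0.002. In each of the 330 genes the 3 AAV-VEGFC libraries lay on 1 side of the 3 BDL libraries, which 33.3% of all tested genes also showed. The higher genes lay a median of 1.11, 0.99 and 1.12 above the BDL mean in AAV-VEGFC 1, 2 and 3 on the log2 scale, and the lower genes lay at medians of -0.86, -0.77 and -0.86, which describes genes chosen for their difference in these same libraries. Without AAV-VEGFC 1, 2050 genes passed (16.1%), of which 813 were higher (6.39%) and 1237 lower (9.72%), and all 330 were among them. An unadjusted p under 0.05 was found for 2436 of the 12598 genes. Of the same 12598, DESeq2 called 323 higher and 818 lower, and limma voom 514 higher and 1197 lower. Counts within the lists below are to be read beside these.

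**Figure D1:**
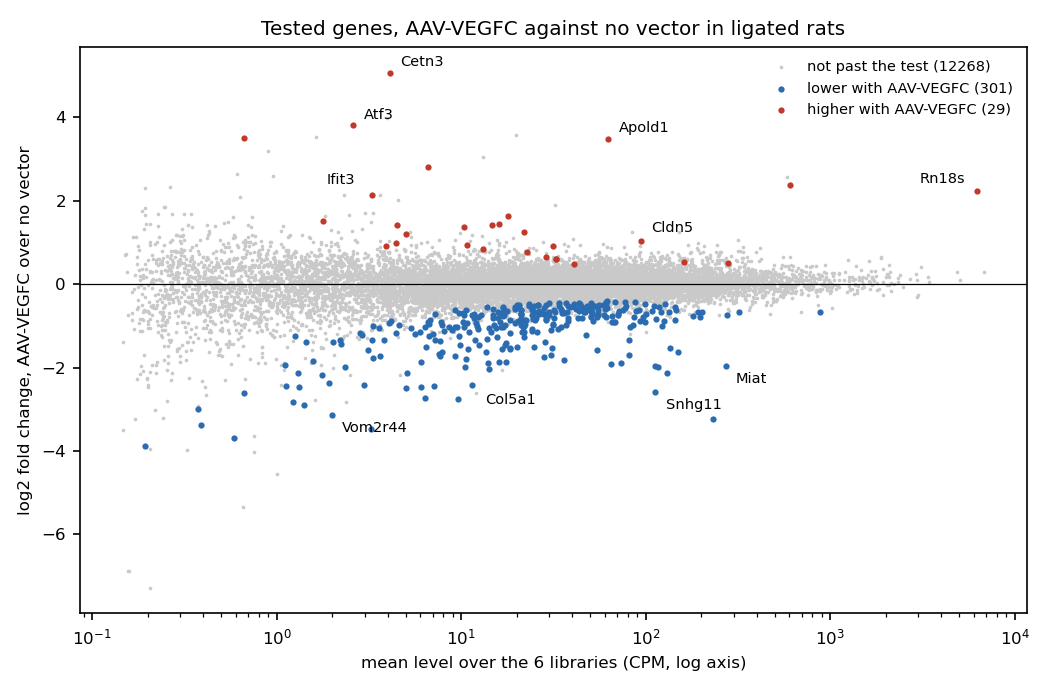
Each point is 1 of 12598 tested genes, with its mean level over the 6 libraries (CPM, log axis) on the x axis and its log2 fold change, AAV-VEGFC over no vector, on the y axis. The 301 lower genes (blue) far outnumber the 29 higher ones (red), and Cetn3, Atf3 and Apold1 lie at the top among the genes named.

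Among the genes that rose were 3 of the blood vessel endothelium list. Apold1, an early-response gene of endothelial cells, read 4.64, 12.6 and 13.4 CPM in the BDL libraries and 109, 113 and 123 CPM with AAV-VEGFC. Its log2 fold change was 3.49 ± 0.38 (adjusted p = 0.00917, edgeR), and the lowest AAV-VEGFC library was far above the highest BDL library. The 3 AAV-GFP libraries lay between, at 51.6, 62.6 and 62.4 CPM, and sham libraries at 13.3 to 19.1 CPM.

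Cldn5, the main tight junction claudin of the blood-brain barrier, read 53.6, 66.7 and 63.9 CPM in BDL and 158, 110 and 113 CPM with AAV-VEGFC, a log2 fold change of 1.04 ± 0.16 (adjusted p = 0.0258, edgeR). The highest of these was AAV-VEGFC 1, and the other AAV-VEGFC libraries were still above every BDL library. Tek, the receptor of the angiopoietins, read 24.3, 28.4 and 24.8 CPM in BDL and 43.4, 37.9 and 37.3 CPM with AAV-VEGFC (log2 fold change 0.60 ± 0.11, adjusted p = 0.0355, edgeR).

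Of 22 tested members of the endothelium and barrier list, these 3 rose and 0 fell by edgeR, where 0.23% of all tested genes rose. The median log2 fold change was 0.43, and 12 members had every AAV-VEGFC library above every BDL library, where 14.8% of all tested genes did. Others, named after their values were seen, missed the threshold. Pecam1, an adhesion molecule of endothelial junctions, had a log2 fold change of 0.71 ± 0.14 (adjusted p = 0.052, edgeR), and Slc2a1, the glucose transporter of the barrier, had 0.75 ± 0.16 (adjusted p = 0.0617). Itm2a (0.58), a membrane protein, Emcn (0.73), a sialomucin of capillaries and veins, and Esam (0.65), an adhesion molecule of tight junctions, had adjusted p of 0.0565, 0.0688 and 0.0797. Cdh5, the cadherin of endothelial junctions, gave 0.28 ± 0.17 and Kdr 0.08 ± 0.20, with groups that overlapped. So did those of Ocln (0.37 ± 0.21) and Abcb1a (0.32 ± 0.19). The 1 member with a negative fold change was Tjp1, a tight junction protein, at -0.27 ± 0.09 (adjusted p = 0.168, edgeR), with groups that did not overlap. The summed level of the list ran from 1010 to 1240 CPM in BDL and from 1560 to 1670 CPM with AAV-VEGFC, and from 1440 to 1520 CPM with AAV-GFP. In bulk tissue, a change in the number of cells of a type and one in RNA per cell cannot be told apart.

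The endothelial count moved with the libraries used. Without AAV-VEGFC 1, by DESeq2 and by limma voom, 10 members were higher and 1 lower, while each of the other libraries, left out in turn, left 0 or 1. Over all tested genes, the former settings called 813 of 12732, 323 of 12598 and 514 of 12598 higher. Among the 29 higher genes, 4 more were named after their values were seen: Icam2 (0.98 ± 0.17), an endothelial adhesion molecule, Lsr (0.84 ± 0.16), a protein of tricellular junctions, Vwa1 (0.92 ± 0.13), a matrix protein, and Bcam (0.77 ± 0.14), a laminin receptor. Their adjusted p by edgeR were 0.0368, 0.0464, 0.0219 and 0.0431. Mural cells beside the endothelium gave 0 calls by edgeR among 15 tested pericyte and smooth muscle genes, with a median of 0.48 and 13 positive. At an unadjusted p under 0.05, 7 of them were higher, where 2436 of all 12598 tested genes had such a p in either direction. DESeq2 called 5 and limma voom 1, all higher. Among them Tagln, a smooth muscle actin-binding protein, gave 0.93 ± 0.28 and Myh11, smooth muscle myosin, 0.69 ± 0.21 (both adjusted p = 0.148, edgeR), and Acta2, smooth muscle actin, named after its value was seen, gave 1.03 ± 0.32. Their summed level was 170 to 229 CPM in BDL and 228 to 273 CPM with AAV-VEGFC. Globin and other blood cell genes gave 0 calls by edgeR among 11 (4 at an unadjusted p under 0.05, 1 by DESeq2 and 0 by limma voom), a median of 0.42, and sums of 785 to 1200 CPM against 1280 to 1670 CPM. The part of blood or mural cells in the endothelial values was not tested.

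Among 23 tested genes of the VEGF and lymphatic axis, Tek rose and 0 fell by edgeR, where 0.23% of all tested genes rose and 2.39% fell, and the median was 0.08. At an unadjusted p under 0.05, 4 were higher and 4 lower, where 2436 of all 12598 tested genes had such a p in either direction. In 12 the groups did not overlap, 8 of them lower, against 33.3% and 18.5% of all tested genes. DESeq2 called 2 higher and 2 lower and limma voom 3 higher and 4 lower. Their calls over all 12598 genes were 323 higher and 818 lower, and 514 higher and 1197 lower. Without AAV-VEGFC 1, 2 were higher and 5 lower, against 6.39% and 9.72% of all tested genes, and the median was -0.18. Vegfc itself read 1.95, 2.44 and 1.51 CPM in BDL and 2.65, 3.29 and 3.85 CPM with AAV-VEGFC, a log2 fold change of 0.72 ± 0.26 (adjusted p = 0.205, edgeR). The AAV-GFP libraries, at 3.65, 2.83 and 3.52 CPM, lay within the AAV-VEGFC range. These counts measure the rat gene's row and check the transgene only as far as its sequence matches that gene, which the sources used here do not give. Flt4 gave 0.25 ± 0.29 (adjusted p = 0.652), with AAV-VEGFC libraries at 2.5, 5.09 and 4.42 CPM around the BDL libraries at 3.01 to 3.94 CPM. Lyve1, the hyaluronan receptor of lymphatic endothelium, was at -0.01 ± 0.20 and changed sign with the processing. Prox1, the transcription factor of lymphatic identity that some neurons also express, read 22.8 to 25.4 CPM in BDL and 19.4, 8.18 and 9.56 CPM with AAV-VEGFC (-0.95 ± 0.31, adjusted p = 0.168). Without AAV-VEGFC 1 it passed at an adjusted p of 0.00124. Vegfa, the main ligand of blood vessel endothelium, read 107, 123 and 109 CPM in BDL and 89, 71.7 and 64.2 CPM with AAV-VEGFC (-0.60 ± 0.13, adjusted p = 0.0712, edgeR), and its decoy receptor Flt1 gave 0.43 ± 0.11 (adjusted p = 0.11).

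Of 39 tested early-response genes, 3 rose and 0 fell by edgeR, where 0.23% of all tested genes rose, and the median was 0.15. DESeq2 and the fit of all 12 libraries each called 9 higher and 3 lower, limma voom 9 higher and 2 lower, and edgeR without AAV-VEGFC 1 called 8 higher and 0 lower. Of all 12598 tested genes DESeq2 called 323 higher and 818 lower, and limma voom 514 higher and 1197 lower. The edgeR shares were 2.91% higher and 7.02% lower with all 12 libraries, and 6.39% and 9.72% without AAV-VEGFC 1. Atf3, a stress-induced transcription factor, read 0.26, 0.404 and 0.362 CPM in BDL and 3.66, 2.06 and 8.9 CPM with AAV-VEGFC (log2 fold change 3.81 ± 0.60, adjusted p = 0.0271, edgeR). Sik1, a kinase induced by cyclic AMP, read 3.9, 6.76 and 6.77 CPM in BDL and a narrow 15.1, 15.9 and 14.1 CPM with AAV-VEGFC (1.36 ± 0.22, adjusted p = 0.0301, edgeR). In AAV-GFP libraries Sik1 lay at 7.5 to 8.24 CPM and in sham at 9.75 to 11.8 CPM, both below every AAV-VEGFC library. Klf4, a transcription factor of vessel walls and epithelia, read 5.31, 11.6 and 8.86 CPM in BDL and 22.7, 22.4 and 25.8 CPM with AAV-VEGFC (1.45 ± 0.27, adjusted p = 0.0412).

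Other early genes did not pass. Arc, which synaptic activity induces in neurons, read 68.9, 169 and 104 CPM in BDL and 52.7, 46 and 51.1 CPM with AAV-VEGFC, lower in every library but at an adjusted p of 0.0968 (-1.20 ± 0.30, edgeR). Cyr61, a matricellular early gene named after its values were seen, ranged from 6.25 to 50.1 CPM with AAV-VEGFC against 1.02 to 4.36 CPM in BDL (3.05 ± 0.84, adjusted p = 0.127). Of its AAV-VEGFC libraries, number 3 was the highest and number 2 lay at 14.5 CPM. All 3 calls in this list were lost when any 1 of the BDL libraries was left out.

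Promoters of the risers are shown where a known response element could be looked for, with sequences of the RefSeq table on build GRCr8, for which 16 of the 29 higher genes had an entry. The core of the cyclic AMP response element, TGACG, or CGTCA on the other strand, was searched on both strands in 300 bases around each start. It is in 21.2% of 33469 promoter windows. Counted by gene, with a match in any of its windows, 6 of the 16 risers with an entry held it, and 75 of 238 genes that fell. The share is per window, so the gene counts cannot be set against it. In the stretches printed here, Sik1 has 2 matches, at -191 and -180 from its start, and Apold1 has 1 at -42. The stretches run from 210 to 141 bases before the start of Sik1 (chr20:9958787-9958856, minus strand) and from 80 to 11 bases before that of Apold1 (chr4:169552519-169552588, plus strand), with the matches in capitals.
Sik1: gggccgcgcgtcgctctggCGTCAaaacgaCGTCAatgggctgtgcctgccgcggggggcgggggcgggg
Apold1: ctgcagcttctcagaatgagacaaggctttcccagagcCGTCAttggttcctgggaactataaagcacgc
A match describes letters in a window and says nothing about binding.

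Interferon-stimulated genes gave 2 rises and 0 falls by edgeR among 33 tested, where 0.23% of all tested genes rose, with a median of 0.18. Limma voom and edgeR without AAV-VEGFC 1 each called 2 higher and 2 lower, with medians of -0.01 and 0.01. Across all tested genes, limma voom called 514 of 12598 higher and 1197 lower, and edgeR without AAV-VEGFC 1 called 6.39% and 9.72%. Ifit3, an antiviral protein that binds viral RNA complexes, read 0.672, 1.13 and 1.85 CPM in BDL and 4.54, 6.7 and 4.92 CPM with AAV-VEGFC (2.14 ± 0.38, adjusted p = 0.0368, edgeR). Ifit2, of the same family, read 7.5, 6.67 and 7.98 CPM against 12.8, 13.3 and 16.2 CPM (0.93 ± 0.15, adjusted p = 0.0278). Both stood at like levels with AAV-GFP, Ifit3 at 4.96 to 8.09 CPM and Ifit2 at 12.7 to 14 CPM. Isg15, a ubiquitin-like modifier, gave 0.90 (adjusted p = 0.247) and is named after its value was seen. Both Ifit calls were lost when any 1 library other than AAV-VEGFC 1 was left out. Irf3, a transcription factor that induces interferon, was among the genes that fell and is named after its value was seen: 26.9, 29.9 and 25.2 CPM in BDL against 12.3, 8.86 and 7.54 CPM with AAV-VEGFC (-1.53 ± 0.19, edgeR adjusted p = 0.0127). The interferon-stimulated response element was taken as 2 copies of GAAA (TTTC on the other strand) with any 2 bases between them and searched on both strands. It is in 3.92% of promoter windows of this length. Counted by gene, an unlike measure, it is in 4 of the 238 fallers and in 1 of the 16 risers with an entry. That riser is Ifit3, with its match at -44 in the stretch chr1:241527246-241527315 (plus strand), shown in capitals.
Ifit3: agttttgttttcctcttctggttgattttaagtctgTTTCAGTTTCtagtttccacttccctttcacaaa

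The other large rises were of mixed kinds. Cetn3, a centrosome protein, had the largest named rise, from 0.347, 0.361 and 0 CPM in BDL to 7.84, 9.44 and 6.59 CPM (5.07 ± 0.72, adjusted p = 0.0209, edgeR). Its AAV-GFP libraries read 14.6, 0 and 0.692 CPM, so the level varied from nothing to the highest of all within that group. Ewsr1, an RNA-binding protein, rose by 1.42 ± 0.16 but varied as widely in reference groups, from 7.24 to 26.3 CPM in sham. Tmem252, a membrane protein, read 1.06, 1.32 and 2.53 CPM in BDL and 7.39, 12.1 and 15.2 CPM with AAV-VEGFC (2.81 ± 0.41, adjusted p = 0.0218). Lrrc32, which anchors latent TGF-beta on cells, rose from 2.15 to 2.69 CPM to between 5.83 and 7.62 CPM (1.42 ± 0.19, adjusted p = 0.0155). With AAV-GFP, Tmem252 read 7.26 to 8.8 CPM and Lrrc32 5.24 to 6.88 CPM. Clic6, a chloride channel protein of choroid plexus, rose from 0.703 to 1.13 CPM to between 2.31 and 3.32 CPM (1.51 ± 0.29, adjusted p = 0.047, edgeR). It was the 1 call among 10 tested choroid plexus genes, whose median was 0.09, where 0.23% of all tested genes rose. It passed in 6 of 13 alternatives, its adjusted p was 0.29 with all 12 libraries in the edgeR fit, and its sham libraries ran from 0.528 to 11.9 CPM. Ttr, the thyroid hormone carrier of that epithelium, named after its value was seen, gave 0.44 at an adjusted p of 0.754.

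Rn18s rose from 1810, 2990 and 1790 CPM to 7620, 11600 and 11900 CPM (2.23 ± 0.27, adjusted p = 0.012, edgeR), and read 4250 to 11500 CPM with AAV-GFP. Among 74 cytosolic ribosomal protein genes, only Rps6, a protein of the small subunit, passed (1.26 ± 0.24, adjusted p = 0.0496), yet all 74 had a positive fold change, with a median of 0.63, and in 40 the groups did not overlap, where 14.8% of all tested genes were higher without overlap. Without AAV-VEGFC 1 the median was 0.15 and 11 genes were higher, where 6.39% of all tested genes were. Rps6 did not pass in edgeR with DESeq2 size factors or with the replicate number as a block, nor without any 1 library other than AAV-VEGFC 1. The summed level of these genes was 11400 to 12400 CPM in BDL and 28900, 12700 and 13500 CPM in AAV-VEGFC 1, 2 and 3. The sum of AAV-VEGFC 1 was thus more than that of any other library, while the other two lay above the BDL range by less. Oxidative phosphorylation genes, which encode the respiratory chain and ATP synthase, gave 0 calls by edgeR among 47, with 46 positive, a median of 0.43 and 40 higher without overlap, against 14.8% of all tested genes. At an unadjusted p under 0.05, 16 were higher, DESeq2 called 7 and limma voom 10, and without AAV-VEGFC 1 edgeR called 15, all higher, with a median of 0.16. Across all 12598 tested genes 2436 had such a p in either direction, DESeq2 called 323 higher and limma voom 514. The share higher without AAV-VEGFC 1 was 6.39%. Ndufa12, a subunit of complex I, came closest, at 1 ± 0.21 (adjusted p = 0.0586), and Atp5b, the beta subunit of ATP synthase, gave 0.32 ± 0.09 (adjusted p = 0.138). Among glycolytic enzymes Tpi1, triosephosphate isomerase, named after its value was seen, rose by 0.53 ± 0.10 (adjusted p = 0.0407).

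**Figure D2:**
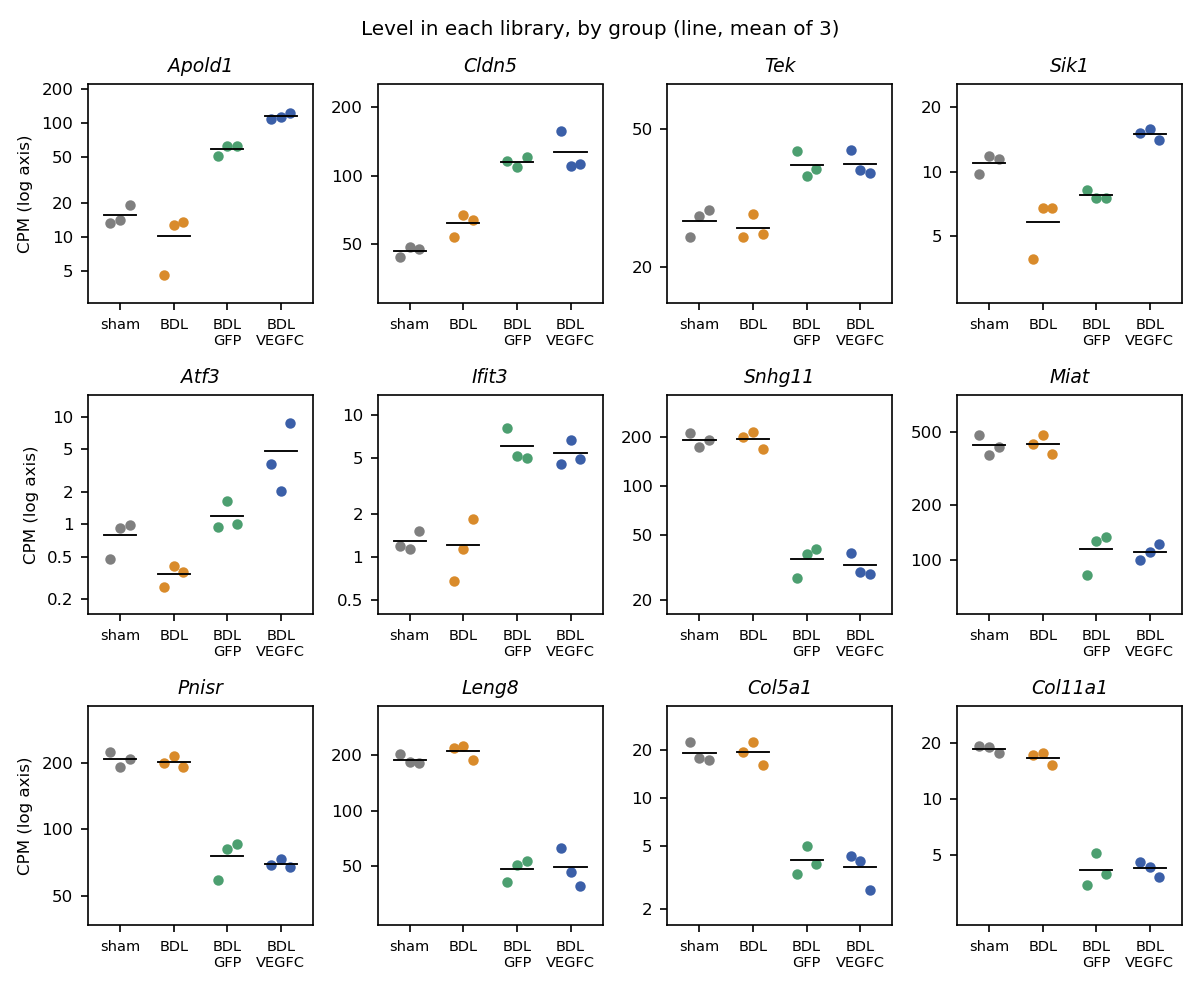
Each panel plots 1 gene's level (CPM, log axis) in the 12 libraries by group, with points for libraries and lines for means of 3. In Apold1, Cldn5, Tek, Sik1, Atf3 and Ifit3 the AAV-VEGFC points lie above all BDL points, and in Snhg11, Miat, Pnisr, Leng8, Col5a1 and Col11a1 below them. The AAV-GFP points of Sik1, at 7.5 to 8.24 CPM, lie below those of AAV-VEGFC.

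Transcripts known to stay in the nucleus or to keep introns fell together in the largest share of the lists examined. Of 26 tested, 16 fell and 0 rose, where 2.39% of all tested genes fell. The count was 7, 7 and 8 without BDL 1, 2 and 3, 8 and 10 without AAV-VEGFC 2 and 3, and 22 lower with 2 higher without AAV-VEGFC 1. In that last setting 9.72% of all tested genes were lower and 6.39% higher. The median was -0.92, and in 21 every AAV-VEGFC library was below every BDL library, against 18.5% of all tested genes. The list was drawn up with earlier results of these data known, so its direction is no independent evidence. Its summed level was 5210 to 5560 CPM in BDL, 3140 to 3530 CPM with AAV-VEGFC, 3250 to 3450 CPM with AAV-GFP and 5200 to 5650 CPM in sham.

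Snhg11, a long noncoding RNA of neurons, read 199, 215 and 168 CPM in BDL and 38.7, 29.6 and 28.8 CPM with AAV-VEGFC (-2.59 ± 0.16, adjusted p = 0.00137, edgeR). Miat, a nuclear noncoding RNA also called Gomafu, read 432, 483 and 379 CPM against 100, 110 and 122 CPM (-1.97 ± 0.13, adjusted p = 0.00178). In both, every AAV-VEGFC library was far below the lowest BDL library. Pnisr, a serine/arginine-rich nuclear protein, read 199, 213 and 190 CPM against 68.8, 73.5 and 67.8 CPM (-1.53 ± 0.09, adjusted p = 0.00137). Leng8, which acts in nuclear RNA retention, read 221, 226 and 189 CPM against 62.2, 46 and 38.8 CPM (-2.12 ± 0.18, adjusted p = 0.0033), and Luc7l3, a U1-associated splicing factor, read 226, 251 and 200 CPM against 82.4, 72.1 and 66.6 CPM (-1.62 ± 0.12, adjusted p = 0.0023). These last 2 are named after their values were seen. The fall of all 5 held in each of 13 alternative analyses, with adjusted p no higher than 0.0353.

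Clk1 and Clk4 are kinases that phosphorylate splicing factors. Clk1 read 114, 128 and 105 CPM in BDL and 51.1, 26.5 and 17.7 CPM with AAV-VEGFC (-1.88 ± 0.35, adjusted p = 0.0448, edgeR), with AAV-VEGFC 1 the highest of its group, and Clk4 fell by 1.51 on the log2 scale (adjusted p = 0.0215). Clk1 passed in 6 of 13 alternatives and Clk4 in 9. Ddx17, an RNA helicase, fell by 1 on the same scale, whereas its relative Ddx5 gave -0.05 (adjusted p = 0.796). Of the 10 members that did not pass, Srsf5, a splicing factor, was at 0.18 ± 0.08 with every AAV-VEGFC library above BDL, and Rbm39, a splicing factor, varied from 5.63 to 53.8 CPM within BDL alone. Clk1, Clk4, Ddx17, Ddx5, Srsf5 and Rbm39 were named after their values were seen.

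Protein genes of RNA processing outside that list were also among the 301, and are named after their values were seen. Snrnp70, the U1 70K protein, read 127, 125 and 117 CPM in BDL and 42.9, 41.2 and 31 CPM with AAV-VEGFC (-1.69 ± 0.14, adjusted p = 0.00275, edgeR). Srek1 and Clasrp, regulators of splicing, fell by 1.11 and 1.07, and Rnpc3, a protein of the minor spliceosome, by 1.64. Thoc1, of the TREX export complex, fell by 1.45, and Nxf1, the mRNA export receptor, by 0.57. Cpsf6, of the 3′ end cleavage machinery, fell by 0.86, Sf3b1, a core protein of the U2 particle, by 0.67, and Srsf1 by 0.67, from 227 to 242 CPM to between 145 and 153 CPM.

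**Figure D3:**
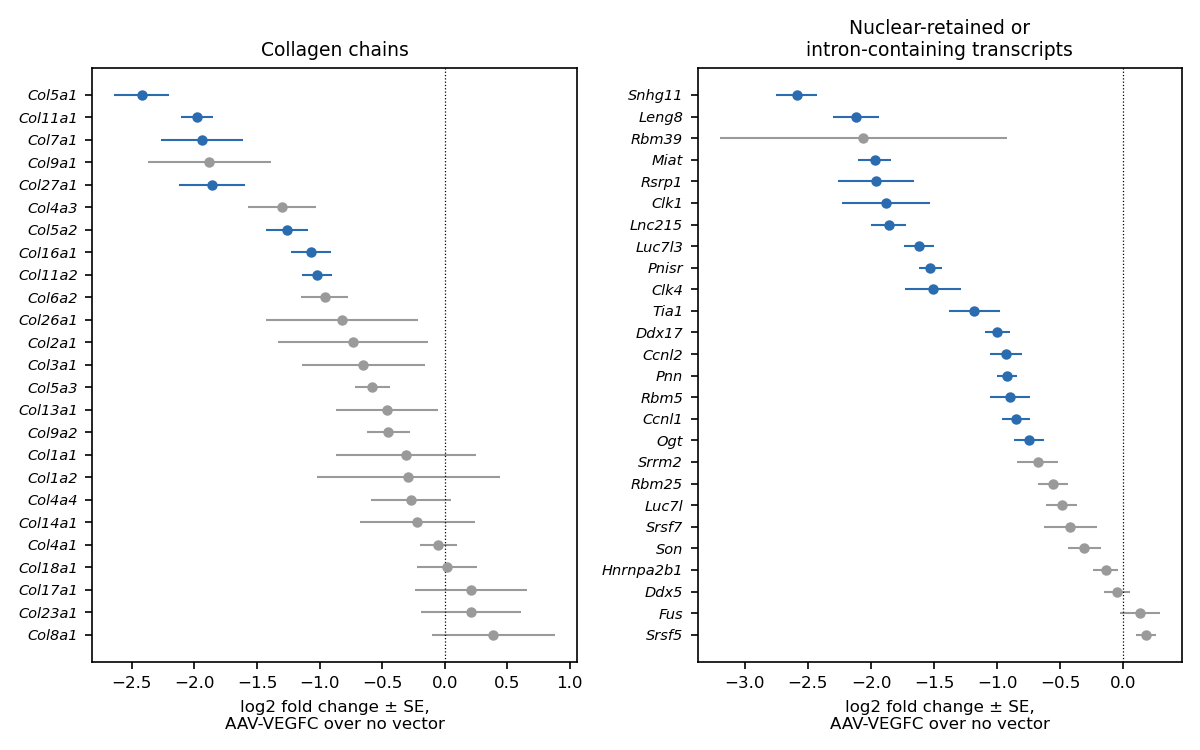
The log2 fold change, AAV-VEGFC over no vector, is plotted with its SE for the 25 tested collagen chains and the 26 tested transcripts of the nuclear list. Blue points passed the test and grey did not: 7 chains and 16 transcripts are blue, all of them left of 0.

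Collagen chains, the subunits of the main fibrous proteins of the matrix, fell in 7 of 25 tested cases with 0 rises, where 2.39% of all tested genes fell. Their median was -0.65, and 12 lay below BDL without overlap, as did 18.5% of all tested genes. The count was 2 without any 1 of the BDL libraries, 3 and 4 without AAV-VEGFC 2 and 3, 10 without AAV-VEGFC 1 or by limma voom, and 11 by DESeq2, lower in each case. Among all tested genes, 9.72% were lower without AAV-VEGFC 1, 1197 of 12598 by limma voom and 818 of 12598 by DESeq2. Col5a1, a chain of the fibrillar type V collagen, read 19.3, 22.5 and 16.2 CPM in BDL and 4.31, 3.99 and 2.64 CPM with AAV-VEGFC (-2.42 ± 0.22, adjusted p = 0.0046, edgeR). Col11a1, of the related type XI, read 17.3, 17.6 and 15.2 CPM against 4.59, 4.35 and 3.85 CPM (-1.98 ± 0.13, adjusted p = 0.00178), and Col11a2 read 112, 105 and 111 CPM against 63.1, 47.4 and 52.7 CPM (-1.02 ± 0.12, adjusted p = 0.0108). In all 3 the groups were far apart, and AAV-GFP libraries lay with AAV-VEGFC, at 3.3 to 4.96 CPM for Col5a1 and 3.46 to 5.13 CPM for Col11a1. Col5a2 fell by 1.26 (adjusted p = 0.0173). Col27a1, Col16a1 and Col7a1, named after their values were seen, fell by 1.86, 1.07 and 1.94.

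The chains that fibroblasts make most of did not pass: Col1a1 gave -0.31 ± 0.56 and Col3a1 -0.65 ± 0.49, each with overlapping groups and a BDL 2 library, at 17.1 and 14.2 CPM, above the rest. Both chains are named after their values were seen. Genes of meninges and fibroblast matrix gave 2 falls among 18 by edgeR, both of them type V collagen, where 2.39% of all tested genes fell. The count was 1 without any 1 BDL library or AAV-VEGFC 2, 3 by limma voom and 4 by DESeq2. Of all 12598 tested genes, limma voom called 1197 lower and DESeq2 818. The list's median was -0.30 (0.18 without BDL 2), and its summed level was 350 to 801 CPM in BDL and 431 to 547 CPM with AAV-VEGFC. Other matrix genes fell and are named after their values were seen. Fbn1, the microfibril protein fibrillin-1, read 15, 18.2 and 15.3 CPM in BDL and 5.8, 5.05 and 5.73 CPM with AAV-VEGFC (-1.56 ± 0.13, adjusted p = 0.00351, edgeR). Pxdn, which crosslinks type IV collagen, fell by 2.03 and P3h3, a collagen prolyl hydroxylase, by 1.50. F8, coagulation factor VIII, an endothelial product, read 26.4 to 28.2 CPM in BDL and 9.04 to 9.91 CPM with AAV-VEGFC (-1.56 ± 0.10, adjusted p = 0.00142), opposite to the endothelial genes above.

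Rows named for microRNA genes fell in 5 of 25 tested cases and rose in 0, with a median of -0.90 and 20 negative, out of 445 such rows, most of which had too few counts. Over all tested genes 2.39% fell. In 12 of the 25 the groups did not overlap, all lower, as in 18.5% of all tested genes. The count of 5 was 2 without any 1 of the BDL libraries or AAV-VEGFC 3, 3 without AAV-VEGFC 2, 8 by DESeq2 and 10 by limma voom. Of all 12598 tested genes, DESeq2 called 818 lower and limma voom 1197. Libraries of this kind do not capture mature microRNAs, so these rows count reads over hairpin loci, which lie in longer transcripts, and the rows say nothing about the mature RNA. The 5 are named after their values were seen, and their mature sequences in RefSeq (GRCr8) are printed to show which products these loci encode, with the seed, bases 2 to 8, in capitals. Of the 25 rows, 23 had an entry. The 8 arms printed, 1 each for Mir3064 and Mir2985 and 2 for each of the others, have 8 distinct seeds.
rno-miR-770-5p: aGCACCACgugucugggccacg
rno-miR-770-3p: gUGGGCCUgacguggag
rno-miR-3064-3p: uUUGCCACacugcaacaccuuaca
rno-miR-186-5p: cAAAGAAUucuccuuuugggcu
rno-miR-186-3p: gCCCAAAGgugaauuuuuugg
rno-miR-2985: uGUUAUAGuaucccaccuaccc
rno-miR-421-3p: aUCAACAGacauuaauuggg
rno-miR-421-5p: gGCCUCAUuaaauguuuguug

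Of these rows, Mir770 read 5.72, 7.23 and 4.86 CPM in BDL and 0.631, 0.599 and 0.374 CPM with AAV-VEGFC (-3.48 ± 0.28, adjusted p = 0.00275, edgeR). Mir3064 read 5.2, 5.44 and 4.42 CPM against 0.984, 0.838 and 0.989 CPM (-2.43 ± 0.20, adjusted p = 0.00275). Both kept their call in all 13 alternatives. Mir2985 fell by 2.47 from 1.97 to 2.44 CPM, while Mir186 (-3.69 ± 0.44) and Mir421 (-3.89 ± 0.73) rest on low levels, at most 1.28 and 0.404 CPM in BDL. The summed level of the microRNA rows was 27.3 to 32.3 CPM in BDL, 11.2 to 12.6 CPM with AAV-VEGFC and 11 to 14.2 CPM with AAV-GFP.

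Zinc finger genes with numbered Zfp symbols, most of them transcriptional repressors with KRAB domains or of unknown function, fell in 10 of 176 tested cases and rose in 0, with a median of -0.18 and 133 negative, where 2.39% of all tested genes fell. These counts moved with the setting: DESeq2 called 30 lower and 2 higher, limma voom and edgeR without AAV-VEGFC 1 each 44 lower and 3 higher, and leaving out any other library left 3 to 5 lower. Of all 12598 tested genes, DESeq2 called 818 lower and limma voom 1197, and 9.72% were lower without AAV-VEGFC 1. Zfp192 (-1.53 ± 0.09), Zfp958 (-1.79 ± 0.13) and Zfp692 (-1.64 ± 0.16), named after their values were seen, kept their call in all 13 alternatives. Zfp192, for one, read 48.7, 43.8 and 46 CPM in BDL and 16.8, 16.3 and 15.1 CPM with AAV-VEGFC (adjusted p = 0.00137, edgeR).

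Among the largest falls were genes of unrelated function, several at low levels. Robo3, a receptor of axon guidance, read 16.5, 21.7 and 11.9 CPM in BDL and 2.45, 2.27 and 2.68 CPM with AAV-VEGFC (-2.76 ± 0.24, adjusted p = 0.00377, edgeR). Fam227a fell from 9.12 to 12.7 CPM to between 1.4 and 2.14 CPM (-2.73 ± 0.22, adjusted p = 0.00275), and Plekhn1 from 9.74 to 10.6 CPM to between 0.923 and 2.75 CPM (-2.46 ± 0.35). With AAV-GFP, Robo3 read 1.81 to 5.12 CPM, Fam227a 1.27 to 2.21 CPM and Plekhn1 1.94 to 3.18 CPM. Vom2r44 (-3.15 ± 0.30), a vomeronasal receptor, Mss51 (-2.90 ± 0.44), Slfn3 (-2.82 ± 0.36), Cpt1b (-2.45 ± 0.43), the muscle form of the carnitine transferase for mitochondrial fatty acids, and Tmprss7 (-2.19 ± 0.35), a membrane serine protease, all lay under 5 CPM in BDL. Slfn3 was at 1.65 to 2.59 CPM in BDL, 0.219 to 0.417 CPM with AAV-VEGFC and 0.811 to 1.42 CPM with AAV-GFP.

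Further genes that fell, of separate functions, are named after their values were seen. Cacna1h, a T-type calcium channel, read 115, 104 and 109 CPM in BDL and 67.1, 60.1 and 62.9 CPM with AAV-VEGFC (-0.80 ± 0.09, adjusted p = 0.00917, edgeR). Lrp1, a large endocytic receptor of the LDL receptor family, read 1040, 1060 and 1140 CPM against 570, 758 and 704 CPM (-0.68 ± 0.13, adjusted p = 0.0454). Cep290 and Nphp4, proteins of the ciliary transition zone, fell by 0.97 and 0.91, while the list of ependyma and cilia genes had 0 calls by edgeR or DESeq2 and 0 at an unadjusted p under 0.05 among 10, with a median of 0.26 (1 lower by limma voom). Cxadr, the coxsackievirus and adenovirus receptor, a junction protein, fell by 1.32 (adjusted p = 0.0161), from 18.1 to 22 CPM to between 6.31 and 9.34 CPM.

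**Figure D4:**
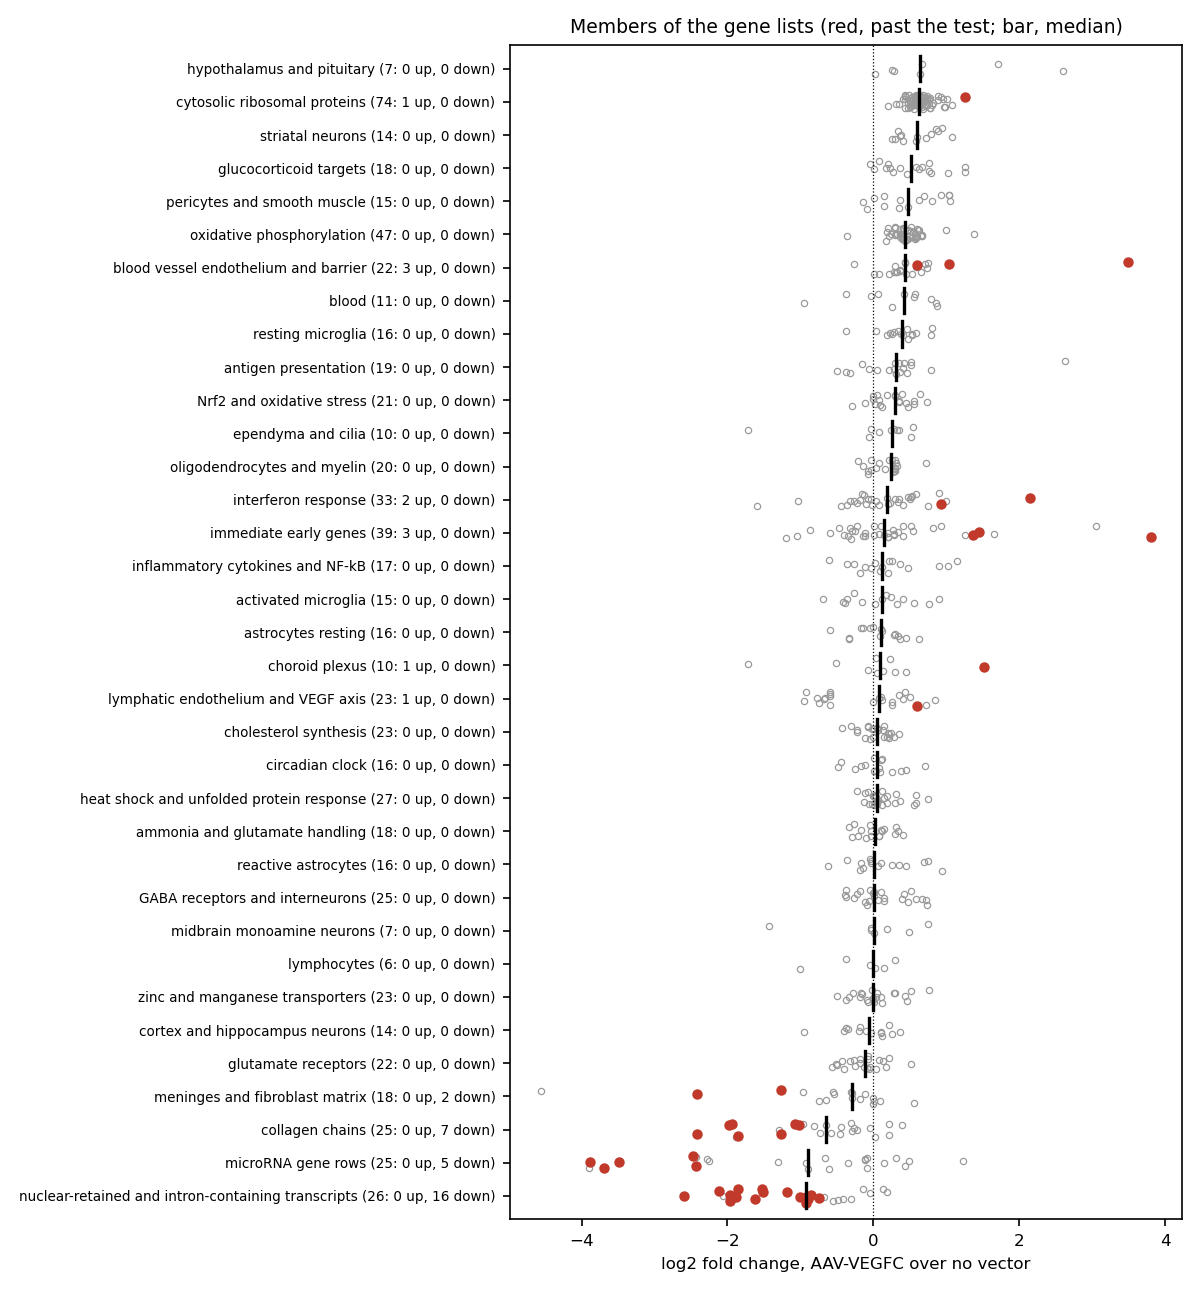
Log2 fold changes of tested members are plotted for 35 lists, ordered by median (black bar), with red points for genes that passed. The nuclear, microRNA and collagen lists lie lowest, with 16, 5 and 7 falls, and most lists show no red point.

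Astrocyte, ammonia and microglial genes gave 0 calls by edgeR. Glul, the glutamine synthetase that fixes ammonia in astrocytes, read 1880, 1870 and 1900 CPM in BDL and 2670, 2190 and 2120 CPM with AAV-VEGFC (0.29 ± 0.10, adjusted p = 0.199), above BDL in every library yet not past the test. Its list of 18 ammonia and glutamate genes had a median of 0.02, with 1 gene at an unadjusted p under 0.05, 0 calls by DESeq2 and 3 by limma voom, 2 higher and 1 lower. Gfap, the astrocyte filament protein, was at 898 CPM in AAV-VEGFC 1 but at 503 and 486 CPM in the others, on both sides of BDL at 589 to 666 CPM (-0.04 ± 0.23). Without AAV-VEGFC 1 it was lower at an adjusted p of 0.0154. Aqp4, the water channel of astrocyte endfeet, gave -0.17 ± 0.13 (adjusted p = 0.466). Among 16 resting astrocyte genes 1 had an unadjusted p under 0.05, DESeq2 called 0 and limma voom 3, and among 16 reactive astrocyte genes there were 0 by each of these. Of all 12598 tested genes, 2436 had such a p, DESeq2 called 1141 and limma voom 1711.

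Aif1, a marker of microglia, was like Gfap highest in AAV-VEGFC 1, at 41.1 CPM against 13.9 and 14.4 CPM in the others. Unlike Gfap, all of these lay above BDL, at 12.6 to 13.5 CPM (0.80 ± 0.41, adjusted p = 0.315, edgeR). The resting microglia list had 15 of 16 members positive and a median of 0.39, with sums of 986, 594 and 636 CPM in AAV-VEGFC 1, 2 and 3 against 543 to 640 CPM in BDL. Of the AAV-VEGFC libraries only number 1 thus lay above the BDL range, while the AAV-GFP sums ran from 643 to 963 CPM. In this list 1 gene, lower, had an unadjusted p under 0.05, DESeq2 called 0 and limma voom 1. The activated microglia list, median 0.12 over 15, had sums of 7130 CPM in AAV-VEGFC 1 and 4020 to 4080 CPM in the others, against 3720 to 4010 CPM. Higher at an unadjusted p under 0.05 were 2 of its genes, and DESeq2 and limma voom each called 2, also higher. The numbers over all 12598 tested genes were 2436 with such a p in either direction, and 323 and 514 called higher.

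The neuronal lists of glutamate receptors and striatal markers gave 0 calls by edgeR as well. Gria2, an AMPA receptor subunit, read 1230, 1180 and 1230 CPM in BDL and 719, 922 and 823 CPM with AAV-VEGFC (-0.57 ± 0.11, adjusted p = 0.0523, edgeR), and Grik2, a kainate receptor subunit, gave -0.51 ± 0.11 (adjusted p = 0.0696). The 22 glutamate receptor genes had a median of -0.11, and 5 were lower at an unadjusted p under 0.05. DESeq2 called 2 of them lower, and limma voom 5 lower and 1 higher. Of all 12598 tested genes, 2436 had such a p in either direction. DESeq2 called 323 higher and 818 lower among them all, and limma voom 514 higher and 1197 lower. All 14 striatal markers were positive, with a median of 0.60, but their sum varied from 798 to 1260 CPM within BDL and from 1130 to 2410 CPM within AAV-VEGFC. Of these, 1 had an unadjusted p under 0.05, DESeq2 called 0 and limma voom 1. Glucocorticoid targets gave 0 calls by edgeR, but 17 positive of 18 and a median of 0.52, with sums of 659 to 961 CPM in BDL and 1100 to 1260 CPM with AAV-VEGFC. At an unadjusted p under 0.05, 7 were higher, as were 7 by DESeq2 and 7 by limma voom, to be read beside the same counts over all genes. Nfkbia, the inhibitor of NF-kappaB, came closest at 1.02 ± 0.22 (adjusted p = 0.0626), followed by Angptl4, an inhibitor of lipoprotein lipase, at 0.79 ± 0.18 (adjusted p = 0.0724). Olig2, of the oligodendrocyte lineage, gave 0.72 ± 0.20 (adjusted p = 0.13).

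Against the vector control, the difference itself was tested in a fit of all 12 libraries, in which 1 of 12850 genes passed (0.00778%). None of the 29 risers and none of the 301 fallers passed that test by edgeR, while 9 and 48 of them had an unadjusted p under 0.05, as did 561 of all genes. In 26 of the 29 risers and 293 of the 301 fallers, every AAV-GFP library also lay beyond every BDL library on the same side. The same BDL libraries had served to choose these genes, which raises such counts. The share of all tested genes with AAV-GFP beyond BDL was not counted, so these counts only describe the chosen genes. By DESeq2, 2 of the 330 differed between the vectors, Sik1 and a gene known only by a locus number, where 10 of all 12850 genes did. Without AAV-GFP 1 edgeR called 3 of the 330, where it called 22 of all 12943 genes. The 3 are Cacna1h, Cdh9 and Plekhg1, which are named after their values were seen. That the other genes missed the threshold does not show that both vectors act alike. This comparison shares the AAV-VEGFC libraries with the one above, so its values are given side by side only. Apold1 differed by 0.97 ± 0.29 between AAV-VEGFC and AAV-GFP (adjusted p = 0.948), Atf3 by 2.02 ± 0.50 (0.948) and Sik1 by 0.95 ± 0.18 (0.857). For Cldn5 the difference was 0.13 ± 0.13, for Tek 0.01 ± 0.10, for Snhg11 -0.13 ± 0.17, for Miat -0.04 ± 0.17 and for Col11a1 0.02 ± 0.14. The first 3 differences are 0.95 or more on the log2 scale, and the others are between -0.13 and 0.13 with errors of at most 0.17. These genes are only part of those named, and both directions held larger and smaller differences. Among fallers, Slfn3 differed by -1.81 ± 0.42, Robo3 by -0.64 ± 0.33 and Col5a2 by -0.50 ± 0.16. Among risers, Cetn3 differed by 0.64 ± 1.21, Ifit3 by -0.17 ± 0.32 and Lrrc32 by 0.10 ± 0.17.

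**Figure D5:**
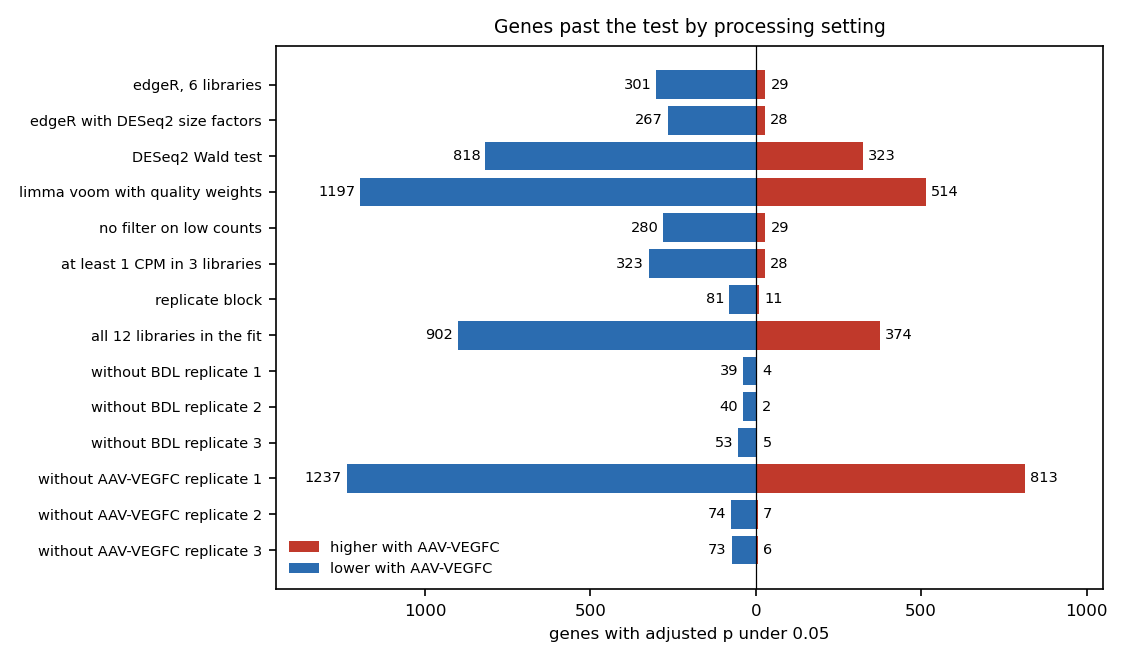
Bars count genes with an adjusted p under 0.05, lower with AAV-VEGFC to the left and higher to the right, for the edgeR fit of 6 libraries and 13 alternatives. Counts run from 42 without BDL 2 to 2050 without AAV-VEGFC 1, and the lower side is the larger in all 14.

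How many genes passed depended on the libraries and the tool, as the plot of calls by setting shows. Leaving out any library other than AAV-VEGFC 1 left 42 to 81 genes, and leaving that library out left 2050. DESeq2 called 1141 genes, limma voom 1711 and a fit of all 12 libraries 1276 of 12850 (9.93%, with 2.91% higher and 7.02% lower), with 28.3%, 30% and 29.3% of calls on the higher side against 8.79% here. All 330 genes had the same direction in each alternative that tested them. Among them 38 passed in every setting, and all 38 were lower with AAV-VEGFC, with Snhg11, Miat, Pnisr, Col5a1, Col11a1, Robo3 and Fam227a among them.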

How the data were processed

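Per the labels' protocols, Trizol-extracted RNA, 200 ng of it per library, went into TruSeq libraries. Per the submitters' processing notes, FastQC, Trimmomatic 0.36, HISAT2 and featureCounts were used on rn6; the sources used here give no annotation, options or strandedness, so overlapping and antisense genes, and reads shared by near-identical copies, cannot be told apart. The deposited values are raw counts for each gene symbol: a table of 17337 rows (4 with a repeated name, 26 named as dates and not named here) and 11 single-library files whose values equal its columns. No 2 libraries of a group agreed within sampling noise.

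From these counts, edgeR 4.0.16 (R 4.3.3) computed TMM factors, filtered with filterByExpr and fitted the 3 AAV-VEGFC and 3 BDL libraries alone (quasi-likelihood test, Benjamini-Hochberg over 12598 genes, threshold 0.05). The difference from AAV-GFP came from a fit of all 12 libraries. CPM used TMM factors of all 12. Genes were named from the 12 largest rises and 12 largest falls that passed, averaging 1 CPM or more without overlap. Further sources were the 3 lowest-p genes in each list and a fixed set (Vegfc, Flt4, Prox1, Lyve1, Cldn5, Gfap, Aqp4, Glul, Aif1, Slc39a12, Rn18s, Arc, Sik1). Only part of the genes so chosen is named. Most other genes are said to be named after their values were seen. The members, lists and tests were chosen with earlier results of these data known. Alternatives were DESeq2 1.42.0 (size factors, own test), limma 3.58.1 voom, other filters, the replicate number as block, all 12 libraries, and each library left out. The tests were first tried on simulated counts in which no library stands apart, so that trial says nothing about the effect of AAV-VEGFC 1. Figures used matplotlib 3.10.9.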

Additional observations from a re-analysis of the deposited data

Results flagged for a closer look

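Slc39a12, a zinc transporter of astrocytes, was the 1 gene that differed between the ligated groups given AAV-VEGFC and AAV-GFP, a test of the difference between vectors. The AAV-GFP libraries read 16.7, 15.2 and 15.6 CPM, the AAV-VEGFC libraries 2.65, 0.998 and 0.615 CPM and the BDL libraries 1.95, 1.76 and 1.61 CPM. The log2 difference, AAV-VEGFC minus AAV-GFP, was -3.49 ± 0.41 (adjusted p = 0.0385, edgeR), and over 13 alternatives it lay between -4.29 and -3.13 and passed in 8, with adjusted p up to 0.748. Against BDL, AAV-VEGFC gave -0.34 ± 0.51 (adjusted p = 0.733, edgeR), so the level that stands out is that of AAV-GFP.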

How the results depend on the processing

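The count of 330 genes became 295 with DESeq2 size factors, 309 without a filter, 351 with a filter at 1 CPM, 1141 by DESeq2, 1711 by limma voom, 1276 with all 12 libraries and 42 to 2050 with 1 library left out. With the replicate number as a block, 92 passed (11 higher, 81 lower), 89 of them shared. Same-numbered BDL and AAV-VEGFC libraries correlated at -0.01, -0.11 and 0.13 in their deviations, so the numbers were not taken to pair them, and of the AAV-VEGFC libraries only number 3 correlated best with its own BDL number. For AAV-VEGFC against AAV-GFP, 1 gene became 10 by DESeq2, 0 with the block or with those 6 libraries alone, and 0 to 22 with 1 library left out (22 without AAV-GFP 1, 9 without AAV-VEGFC 1). Values near 0 changed sign, and with 1 library left out reached -0.12 for Lyve1, -0.93 for Col1a1, -0.37 for Gfap, -1.13 for Slc39a12 and 0.28 for Kdr at the other end: Lyve1 to 0.01 with size factors and by DESeq2, 0.12 by voom, and 0 to 0.12 without BDL 1, BDL 2, AAV-VEGFC 1 or AAV-VEGFC 3 (0.05, 0.04, 0.12 and 0); Col1a1 to 0.03 by voom and 0.35 without BDL 2; Gfap to 0.13 and 0.15 without AAV-VEGFC 2 and 3; Slc39a12 to 0.05 without AAV-VEGFC 3; and Kdr to 0 and -0.03 without AAV-VEGFC 2 and 3. The cause was not tested, though leaving out a library also leaves fewer samples. The 3 against 3 design and low counts limit what genes under about 1 CPM can show.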
